A study of Mus musculus with 12 samples.

Results

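Dermal adipocyte genes were taken as a list of 10 genes that mark fat cells and their lipid droplets: the adipokines Adipoq, Lep and Retn, the lipid droplet proteins Plin1, Plin4, Cidec and Cidea, the fatty acid handling proteins Fabp4 and Lpl, and the transcription factor Pparg. All 10 were found among the 56923 genes of the counts table, and all 10 passed the filter on low counts that left 18529 genes to test. Their levels were compared in RNA-seq of whole back skin from 12 female mice aged 8 to 10 weeks, 3 in each of 4 groups. WT control mice received vehicle cream and WT IMQ mice a cream with 5% imiquimod (IMQ), a TLR7 agonist that produces psoriasis-like inflammation, every day for 6 days. The corresponding mice labelled Lcn2-/-, on a C57BL/6 background, are called KO control and KO IMQ here, after the sample titles. The WT mice were littermates according to the study's methods. The sample labels call the genotype a knockdown and give the treatment of the controls as none, whereas the methods describe a knockout and vehicle. Lcn2 was counted in every library, so that the KO names stand for the labels only.

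Dermal white adipocytes form a layer under the reticular dermis of mouse skin, above the panniculus carnosus muscle, and they expand and regress with the hair cycle. PPARγ drives adipocyte differentiation and keeps the genes of lipid uptake and storage switched on. Fatty acids released from lipoproteins by lipoprotein lipase (Lpl) are carried inside the cell by FABP4 and stored as triglyceride in a droplet that perilipins and CIDE proteins coat. Adiponectin (Adipoq) and leptin (Lep) are secreted hormones, and leptin mRNA is known to follow fat cell size and energy state.

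Promoter windows of 300 bases, from 250 before to 50 after a RefSeq start site on GRCm38.p6, were found for 7 of the 10 genes, 10 windows in all. The windows below are those to hold beside the values that follow, since Lep and Pparg were lower after IMQ in both genotypes and Cidec was called in neither. Each is printed 5′ to 3′ on the strand of its gene, with matches to a C/EBP core (TTGCNNAA, searched on both strands) in capitals.
Lep, chr6:29059971-29060270, plus strand: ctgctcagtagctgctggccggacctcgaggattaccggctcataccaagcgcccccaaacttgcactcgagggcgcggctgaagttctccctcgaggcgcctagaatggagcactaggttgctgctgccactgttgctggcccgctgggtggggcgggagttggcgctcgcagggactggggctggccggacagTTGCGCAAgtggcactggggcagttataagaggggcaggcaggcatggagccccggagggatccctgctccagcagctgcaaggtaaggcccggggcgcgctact
Pparg, chr6:115421816-115422115, plus strand: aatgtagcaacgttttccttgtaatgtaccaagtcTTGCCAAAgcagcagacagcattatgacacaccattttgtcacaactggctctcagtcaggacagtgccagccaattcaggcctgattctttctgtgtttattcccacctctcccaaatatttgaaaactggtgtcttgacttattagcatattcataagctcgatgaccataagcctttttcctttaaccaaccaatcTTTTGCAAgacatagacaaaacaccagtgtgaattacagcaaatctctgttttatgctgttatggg
Cidec, chr6:113434715-113435014, minus strand: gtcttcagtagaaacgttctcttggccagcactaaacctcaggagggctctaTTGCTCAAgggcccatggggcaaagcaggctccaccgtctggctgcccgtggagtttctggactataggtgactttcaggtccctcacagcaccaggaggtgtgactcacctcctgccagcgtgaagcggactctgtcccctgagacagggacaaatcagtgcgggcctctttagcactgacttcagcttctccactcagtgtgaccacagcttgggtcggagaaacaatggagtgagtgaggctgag
The match in Lep lay 55 to 48 bases before the start, the 2 matches in Pparg at 215 to 208 and 16 to 9 bases before it, and the match in Cidec at 198 to 191 bases before it. C/EBP proteins are the factors that act with PPARγ in adipocyte differentiation. The core was present in 4 of the 10 windows (Lep, Cidec, Plin1 and 1 of the Pparg windows) and in 10.8% of all 32817 windows. An EBF core (CCCNNGGG) was present in 4 of the 10 windows, of Cidec, Plin1 and Plin4, and in 13.7% of all windows. No match of any 2 of these cores overlapped in the windows printed. The direct repeat bound by PPAR-RXR was in none of the 10 windows and in 0.0396% of all. A nuclear receptor half-site (AGGTCA) was in 2 of the 10, both of Pparg, and in 16.3% of all windows. A TATA box (TATAAA) was in 1 of the 10, of Pparg, and in 13.6% of all. The 10 windows are of 7 genes, and no share was tested. A match is a run of letters and not a bound site, and the windows of Cidec, which was not called, and of Lep, which was, both held the C/EBP core.

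Between 16448226 and 28592110 reads were counted on genes in a library, so that 3 reads correspond to 0.105 to 0.182 CPM, the counts scaled to library size after TMM normalisation. That lower limit reflects counting error alone. A gene is called here where the adjusted p of edgeR's quasi-likelihood test, over all tested genes, was under 0.05. As a check on the labels, Lcn2 differed by -1.49 on the log2 scale between KO IMQ and WT IMQ (SE 0.40, adjusted p = 0.0525, edgeR) and of 0.87 between KO control and WT control (adjusted p = 0.794). An extract protocol in the labels names retinas, but the summed level of 8 photoreceptor markers was between 0.47 and 2.90 CPM, with the defining factors Crx and Nrl at 0 reads in every library. In whole skin, fewer fat cells and less RNA per fat cell cannot be told apart in any value below.

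In WT control skin the members were expressed over a wide range. For levels per kilobase, CPM were divided by the joined length of all annotated exons of a gene, not by that of a transcript. For Fabp4 that length was 4489 bases, the whole span of the gene, and for Lpl 10478 bases, against 1115 for Cidea. The order between genes is therefore approximate. On this scale Fabp4 was highest with 289 ± 79.4 CPM per kb (SD, n = 3). It was followed by Adipoq (240 ± 89.3), Cidec (182 ± 71.1), Cidea (125 ± 47.7), Lpl (121 ± 16.98), Retn (98.1 ± 13.0) and Plin4 (67.8 ± 28.5). Plin1 (43.6 ± 8.03), Pparg (21.2 ± 1.04) and Lep (14.7 ± 5.72) were lowest on this scale. Of the 9 steps in this order only that from Plin1 to Pparg separated the 3 mice of one gene from those of the next. After IMQ in WT mice, Cidea moved from rank 4 to rank 7 and Lep stayed last at 1.45 ± 0.724 CPM per kb, below Pparg in every mouse. In KO control skin Lep ranked above Pparg, with overlapping ranges.

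The first comparison asked how the adipocyte genes of WT skin stood after IMQ. All 10 had a fitted level below that of the WT control mice, and 4 of them, Lep, Cidea, Pparg and Plin4, were lower by the test. No member was higher. Among all tested genes 14.3% were called lower and 14.2% higher. The median log2 fold change of the 10 members was -1.01, against -0.02 over all tested genes. By a fold change above 2 with an unadjusted p under 0.05, 6 of 10 members were lower (Adipoq and Plin1 in addition), against 9.79% of tested genes. For 5 members every WT IMQ mouse lay below every WT control mouse, which held for 20.6% of tested genes. The 4 called genes were at least 2-fold lower on average, and fitted differences over the list ran from 10.3-fold for Lep to 1.33-fold for Retn.

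**Figure D1:**
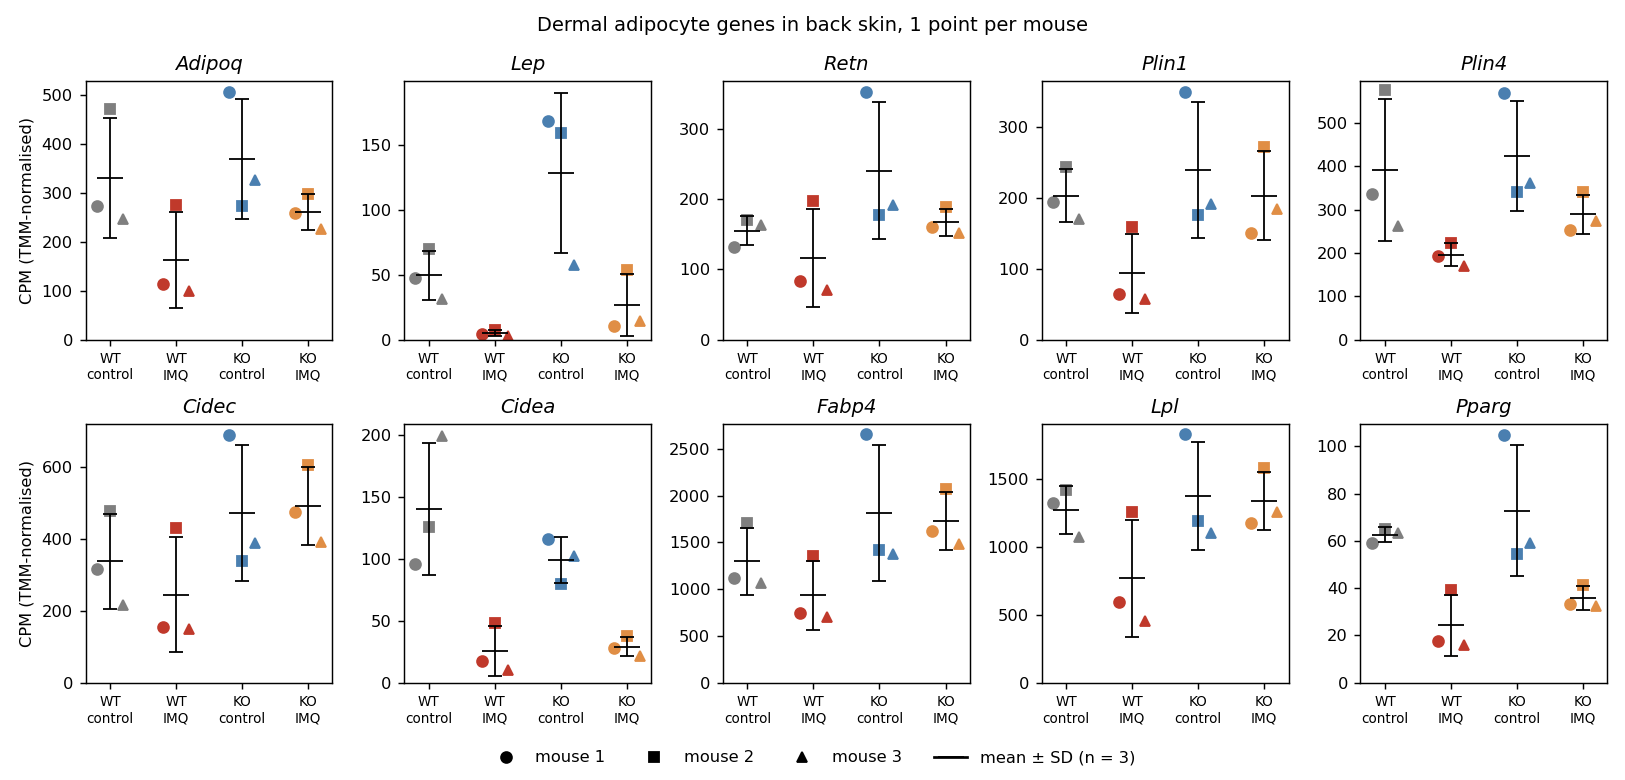
Level of each of the 10 dermal adipocyte genes in every mouse (vertical axis, TMM-normalised CPM, linear from 0; horizontal axis, the 4 groups; 1 point per mouse; lines, mean ± SD, n = 3). Lep and Cidea are low in all IMQ mice of the WT group, and WT IMQ mouse 2 (square) is the highest of its group in every panel.

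Lep showed the largest difference of the list. Leptin is the fat-derived satiety hormone, encoded at chr6:29060220-29073877 of GRCm38 (ENSMUSG00000059201). Its level was 47.4, 69.4 and 31.2 CPM in the WT control mice and 4.30, 7.52 and 2.76 CPM in the WT IMQ mice. The highest WT IMQ mouse was thus below the lowest control, and between 57 and 112 reads stood behind each WT IMQ value. By edgeR's quasi-likelihood test the log2 fold change was -3.36 (SE 0.69) and the adjusted p 0.00438, a 10.3-fold lower level. Adiponectin, the most abundant of the hormones that fat cells secrete (Adipoq, ENSMUSG00000022878, chr16:23146536-23158028), was at 273, 473 and 247 CPM in controls and at 114, 276 and 100.1 CPM after IMQ. Mouse 2 of the WT IMQ group lay among the controls, and the log2 fold change of -1.02 (SE 0.39) was not called (adjusted p = 0.0687, edgeR). Resistin (Retn, ENSMUSG00000012705, chr8:3655770-3660110), a cysteine-rich hormone of mouse fat, was at 132, 170.4 and 163 CPM in controls and at 82.5, 196 and 69.9 CPM after IMQ. Its groups overlapped as well, with a log2 fold change of -0.42 (adjusted p = 0.418).

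Among the lipid droplet proteins, Cidea differed most. CIDEA promotes the fusion and growth of lipid droplets and is a marker of brown and beige fat that sebaceous glands express too. It lies at chr18:67343604-67367785 (ENSMUSG00000024526), where the antisense transcript B430212C06Rik overlaps it, and 195 reads in all were counted on that transcript. The WT control mice had 95.5, 125 and 199 CPM of Cidea and the WT IMQ mice 17.2, 48.3 and 10.6 CPM. No values overlapped, and the log2 fold change was -2.47 (SE 0.48, adjusted p = 0.00328, edgeR), 5.54-fold lower. Plin4, a perilipin of small droplets (ENSMUSG00000002831, chr17:56100591-56109803, with Hdgfl2 on the opposite strand across its end), was at 337, 577 and 261 CPM in controls and at 193, 224 and 170.3 CPM after IMQ. These groups did not overlap either (0.4998 times the control level, 95% interval of the log2 fold change -1.62 to -0.38, adjusted p = 0.021, edgeR). Perilipin 1, the coat protein that gates lipolysis in white adipocytes (Plin1, ENSMUSG00000030546, chr7:79720218-79732903), was at 194, 243 and 170.3 CPM in controls against 64.3, 158 and 57.7 CPM. All 3 IMQ mice were below all controls, but the log2 fold change of -1.12 (SE 0.39) missed the threshold with an adjusted p of 0.0527 (edgeR). Cidec, whose product joins droplets into the single large one of white fat cells (ENSMUSG00000030278, chr6:113424634-113435760), was at 317, 478 and 217 CPM in controls and 154, 431 and 150.2 CPM after IMQ. Its groups overlapped because mouse 2 remained near the highest control (log2 fold change -0.46, SE 0.43, adjusted p = 0.458).

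Neither gene of fatty acid uptake and transport was called. Fabp4, the abundant cytoplasmic fatty acid carrier of adipocytes (ENSMUSG00000062515, chr3:10204088-10208576), was at 1119.9, 1709 and 1067 CPM in controls and 740.4, 1359 and 704 CPM after IMQ. On the log2 scale this was -0.47 (SE 0.32, adjusted p = 0.296, edgeR). Lpl (ENSMUSG00000015568, chr8:68880491-68907448), the lipase that frees fatty acids from lipoproteins, was at 1324, 1419 and 1075 CPM in controls and 597, 1255 and 451 CPM after IMQ, or -0.73 on the log2 scale (SE 0.33, adjusted p = 0.123). Both genes are also expressed by other cells, FABP4 by capillary endothelium and Lpl by muscle and macrophages. The transcription factor Pparg (ENSMUSG00000000440, chr6:115360951-115490399) was at 59.3, 65.2 and 63.5 CPM in controls, the tightest group of the list with a coefficient of variation of 4.89%. In the WT IMQ mice it was at 17.5, 39.2 and 16.1 CPM, below every control. The log2 fold change was -1.37 (SE 0.33, adjusted p = 0.00986, edgeR), a 2.59-fold lower level. The antisense transcript Gm44079 overlaps Pparg with 9 reads in all, and the strand setting of the counting is not given in the sources used here.

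The second comparison asked the same of the mice labelled Lcn2-/-. Lep, Cidea and Pparg were lower in KO IMQ than in KO control skin, and no member was higher, against 11.2% of tested genes called lower and 14.1% called higher. Of the 10 members 9 were below 0 on the log2 scale, with a median of -0.51 against -0.05 over all tested genes. For 4 members (Lep, Cidea, Pparg and Plin4) the groups did not overlap, which held in this direction for 22.8% of tested genes. Lep was at 168, 159 and 57.2 CPM in the KO control mice and at 10.7, 53.9 and 14.5 CPM in the KO IMQ mice, and the highest IMQ mouse stood just under the lowest control. The log2 difference was -2.28 (SE 0.63, adjusted p = 0.0227, edgeR), 4.86-fold lower. Cidea was at 116, 79.3 and 102 CPM in KO controls and at 27.9, 37.4 and 21.9 CPM after IMQ, well apart. They differed by -1.77 on the log2 scale (SE 0.47, adjusted p = 0.0188, edgeR). Pparg was at 105, 54.6 and 59.1 CPM and at 33.2, 41.5 and 32.3 CPM, or -1.03 on the log2 scale (SE 0.32, adjusted p = 0.0378, edgeR). Plin4 was at 569, 341 and 361 CPM and at 253, 340.2 and 273 CPM, separated by less than 1 CPM at the nearest point (log2 fold change -0.55, adjusted p = 0.168).

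The other members were not called, and their groups overlapped. Adipoq was at 507, 273 and 327 CPM in KO controls and at 259, 299 and 226 CPM after IMQ, a log2 fold change of -0.50 (95% interval -1.34 to 0.34). Cidec was at 688, 338 and 388 CPM and at 476, 605 and 391 CPM, a log2 fold change of 0.06 (95% interval -0.89 to 1.00). Fabp4 was at 2659, 1414 and 1374 CPM and at 1621, 2074 and 1483 CPM, a log2 fold change of -0.07 (95% interval -0.78 to 0.63). In each of these KO control mouse 1 was the highest of its group. For Lpl (log2 fold change -0.04), Plin1 (-0.24) and Retn (-0.53, 95% interval -1.32 to 0.26) the adjusted p values were 0.949, 0.689 and 0.304 (edgeR). Calls in these mice rest on few animals. Without KO IMQ mouse 1, or without KO IMQ mouse 3, 0 members were called lower, although 3 had an unadjusted p under 0.05 in each of these fits, and without KO control mouse 1 the count was 1 (Cidea), with 6 of 10 members below 0. It was 2 without KO control mouse 2 (Cidea and Pparg), without KO control mouse 3 (Lep and Cidea) and without KO IMQ mouse 2 (Lep and Cidea).

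**Figure D2:**
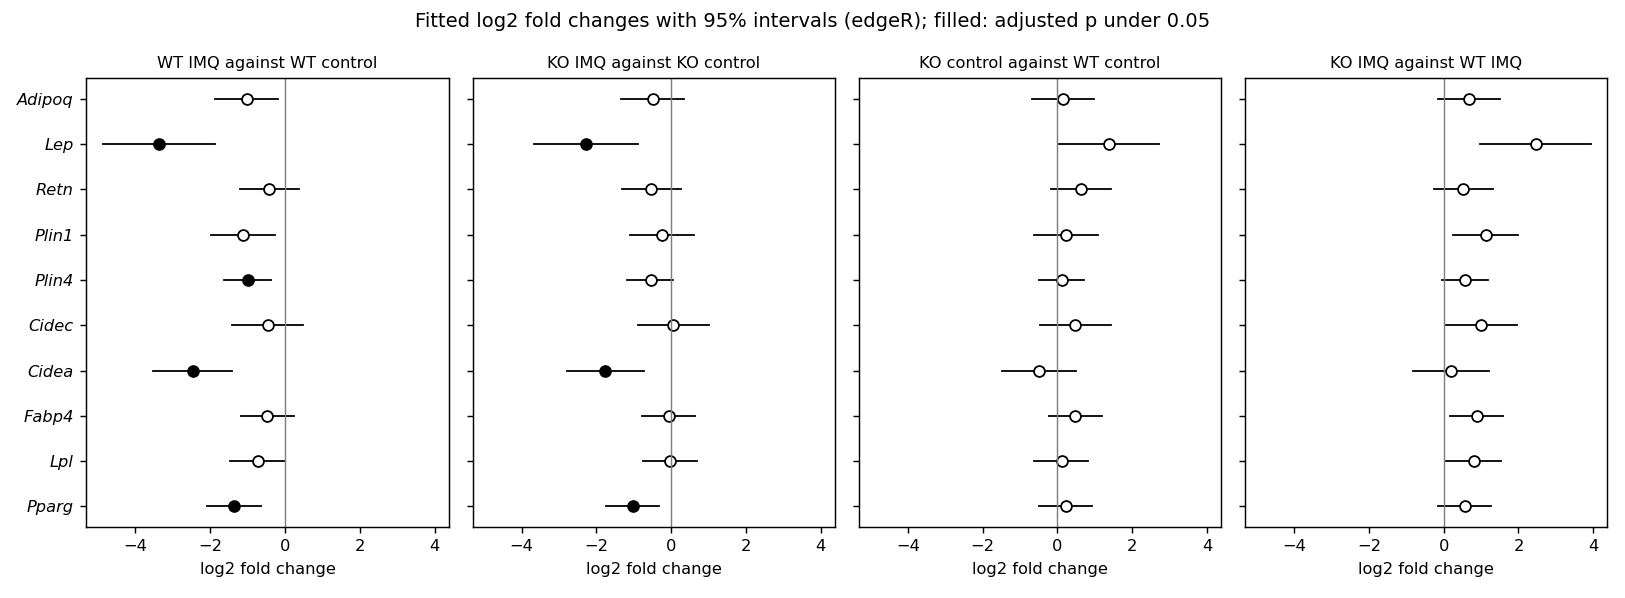
Fitted log2 fold changes of the 10 genes (horizontal axis) in 4 comparisons, with 95% intervals from edgeR over 3 mice a group (filled points, adjusted p under 0.05). Filled points are Lep, Plin4, Cidea and Pparg in WT mice and Lep, Cidea and Pparg in KO mice, and in the comparison of the IMQ groups all 10 points lie to the right of 0.

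Without treatment the genotypes were hardly told apart by the levels of these genes. No member was called between KO control and WT control by edgeR's quasi-likelihood test or by DESeq2. Over all tested genes the share called by edgeR was 0.0108%. Lep was the 1 member with an unadjusted p under 0.05 (6.6% of tested genes), at 128 ± 61.6 CPM in KO control against 49.3 ± 19.2 CPM in WT control (SD, n = 3). Its log2 fold change of 1.38 (SE 0.61) had an adjusted p of 0.749, and KO control mouse 3 lay within the WT range at 57.2 CPM. Retn was the 1 member with all KO controls (352, 177 and 191 CPM) above all WT controls, which 4.19% of tested genes showed in this direction. KO control mouse 1 was the highest of the 3 KO controls for all 10 members, and 0.783% of its reads fell on them, against 0.454% and 0.457% in the other KO controls.

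Between the IMQ groups, all 10 members had a higher fitted level in KO IMQ than in WT IMQ mice, but edgeR's quasi-likelihood test called 0 of them. The median of the list on the log2 scale was 0.74, against -0.02 over all tested genes. Among tested genes 2.19% were called higher and 2.6% lower. An unadjusted p under 0.05 was found for 5 members (Lep, Plin1, Cidec, Fabp4 and Lpl) and for 27.0% of tested genes. Without WT IMQ mouse 1, WT IMQ mouse 3 or KO IMQ mouse 2 that count was 1, and 9 of 10 members were above 0. DESeq2 on all 12 mice called 3 members higher (Lep, Plin1 and Fabp4) and DESeq2 on the 6 IMQ mice 3 (Lep, Plin4 and Fabp4). By a fold change above 2 with an unadjusted p under 0.05, 3 members were higher, Lep, Plin1 and Cidec, against 3.1% of tested genes. Lep, Plin4 and Fabp4 had groups that did not overlap, as had 16.0% of tested genes in this direction. The comparison shares the WT IMQ mice with the first comparison and the KO IMQ mice with the second, so that it is not independent of either.

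Lep stood nearest to the threshold. Its KO IMQ mice at 10.7, 53.9 and 14.5 CPM were all above the WT IMQ mice at 4.30, 7.52 and 2.76 CPM, or 2.46 higher on the log2 scale (SE 0.67, adjusted p = 0.0581, edgeR). Fabp4 was at 1621, 2074 and 1483 CPM against 740.4, 1359 and 704 CPM, again without overlap (log2 fold change 0.89, SE 0.32, adjusted p = 0.113). Plin4 was at 253, 340.2 and 273 CPM against 193, 224 and 170.3 CPM (log2 fold change 0.56, SE 0.28, adjusted p = 0.222). Cidea was the member nearest to equality, at 29.0 ± 7.82 CPM in KO IMQ and 25.4 ± 20.2 CPM in WT IMQ mice (SD, n = 3), a log2 fold change of 0.20 (95% interval -0.82 to 1.22). Whether the IMQ response itself differed by genotype was tested as an interaction. It was called for 0 of the 10 members by edgeR's quasi-likelihood test and by DESeq2, 0 had an unadjusted p under 0.05, and among tested genes the shares were 2.15% and 24.1%. The interaction of Lep was 1.08 on the log2 scale (SE 0.89, adjusted p = 0.473) and that of Plin1 0.88 (SE 0.55, adjusted p = 0.34). The 95% interval of the former, -0.87 to 3.03, was wide.

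The number of members called in WT mice depended much on WT IMQ mouse 2, although the 4 called ones stayed called without it. This mouse had the highest level of its group for all 10 members, whereas 41.5% of tested genes were highest in it. Its levels were between 1.23 times (Plin4) and 3.48 times (Cidea) the mean of the other 2 mice, and for 7 members it was more than 2 times the higher of them, against 3.98% of tested genes. The other 2 mice differed by 1.03 times (Cidec) to 1.62 times (Cidea). Summed marker levels of other cell types moved with it. Its 10 sebaceous gland markers summed to 2331 CPM, against 758 and 497 CPM, its endothelial markers to 828 CPM, against 522 and 539 CPM, and its keratinocyte markers to 30604 CPM, against 40901 and 39294 CPM. Its skeletal muscle markers, at 6891 CPM, lay within the 6881 to 8490 CPM of the others. The part of these cell types in the members' levels was not tested. Without this mouse 9 members were called lower in WT IMQ skin, all but Fabp4, with a log2 median of -1.46, and 8 were called higher in KO IMQ than in WT IMQ skin, all but Plin4 and Cidea, with a median of 1.28. The interaction was then called for Lpl alone (log2 1.25, adjusted p = 0.0395). Without WT IMQ mouse 1, 2 members were called lower in WT IMQ skin (Lep and Cidea), and without mouse 3, or without WT control mouse 2, 3 (Lep, Cidea and Pparg). The levels of all 10 members stayed below those of WT controls in each of these fits.

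**Figure D3:**
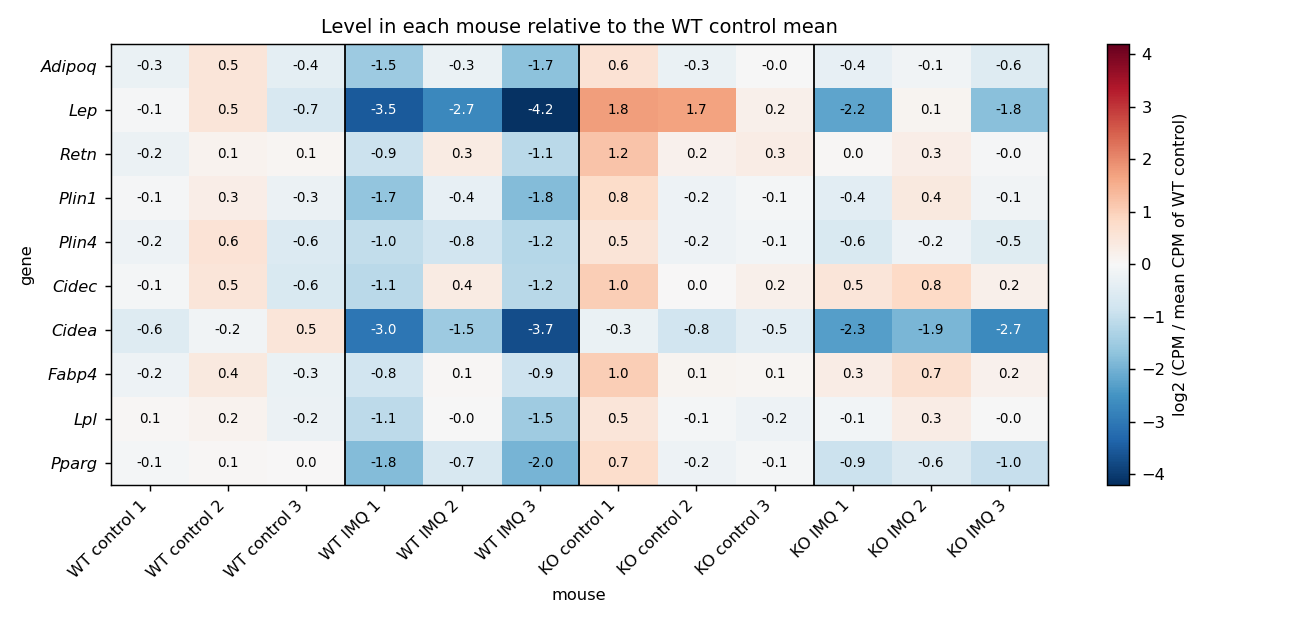
Level of each gene (rows) in each mouse (columns) as log2 of its CPM over the mean CPM of the WT control mice (colour and printed value, 1 unit is a 2-fold difference). WT IMQ mice 1 and 3 are low in every row, WT IMQ mouse 2 is lowest for Lep and Cidea and near 0 for Lpl and Fabp4, and KO control mouse 1 is high in every row but that of Cidea.

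Because the whole list moved up and down between mice, members were also set against each other within a library, a comparison chosen after the levels were seen. The ratio of counts of one gene to those of another does not depend on normalisation, and it says nothing of either gene alone. In WT mice 100 Adipoq reads went with 14.9 ± 2.36 Lep reads in controls and 3.09 ± 0.597 after IMQ (SD, n = 3), and mouse 2, at 2.73, was as low as mouse 3, at 2.75. In KO mice the ratio was 36.3 ± 20.6 in controls and 9.52 ± 7.45 after IMQ, and the groups overlapped, since KO IMQ mouse 2 had 18.0 and KO control mouse 3 had 17.5. Cidec and Fabp4 went the other way. Per 100 Adipoq reads, Cidec was at 101 ± 14.1 in WT control and 147 ± 10.6 in WT IMQ mice, and at 126 ± 8.67 in KO control and 186 ± 14.8 in KO IMQ mice. Fabp4 was at 401 ± 35.7 and 616 ± 109.8 in WT mice and at 487 ± 58.3 and 659 ± 33.7 in KO mice. Both ratios were higher in all IMQ mice than in all control mice of their genotype, mouse 2 of the WT IMQ group included. The 2 CIDE genes parted too. Per 100 Cidec reads there were 30.2, 26.2 and 91.8 Cidea reads in the WT control mice, the last of them far above the others, and 9.81 ± 2.39 in WT IMQ mice. There were 22.2 ± 4.86 and 5.88 ± 0.294 in KO control and KO IMQ mice. With 3 mice against 3, an exact two-sided permutation test cannot go below 0.1, the p found for each of these except Lep over Adipoq in KO mice (exact p = 0.2), and 28 such comparisons were made in all. Within genotypes, the ratios left out above were mixed. Retn over Adipoq was higher in all WT IMQ than WT control mice, with overlap in KO mice. Pparg over Adipoq overlapped in WT mice and was lower in all KO IMQ than KO control mice. Plin1 over Adipoq overlapped in both genotypes. Between genotypes, Lep and Cidec over Adipoq were higher in all KO than WT mice, in controls and after IMQ. After IMQ, Plin1 over Adipoq was higher, and Retn over Adipoq and Cidea over Cidec lower, in all KO than WT mice. These 3 ratios overlapped in controls, and Pparg and Fabp4 over Adipoq overlapped in both conditions. The exact p of these separations was again 0.1.

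**Figure D4:**
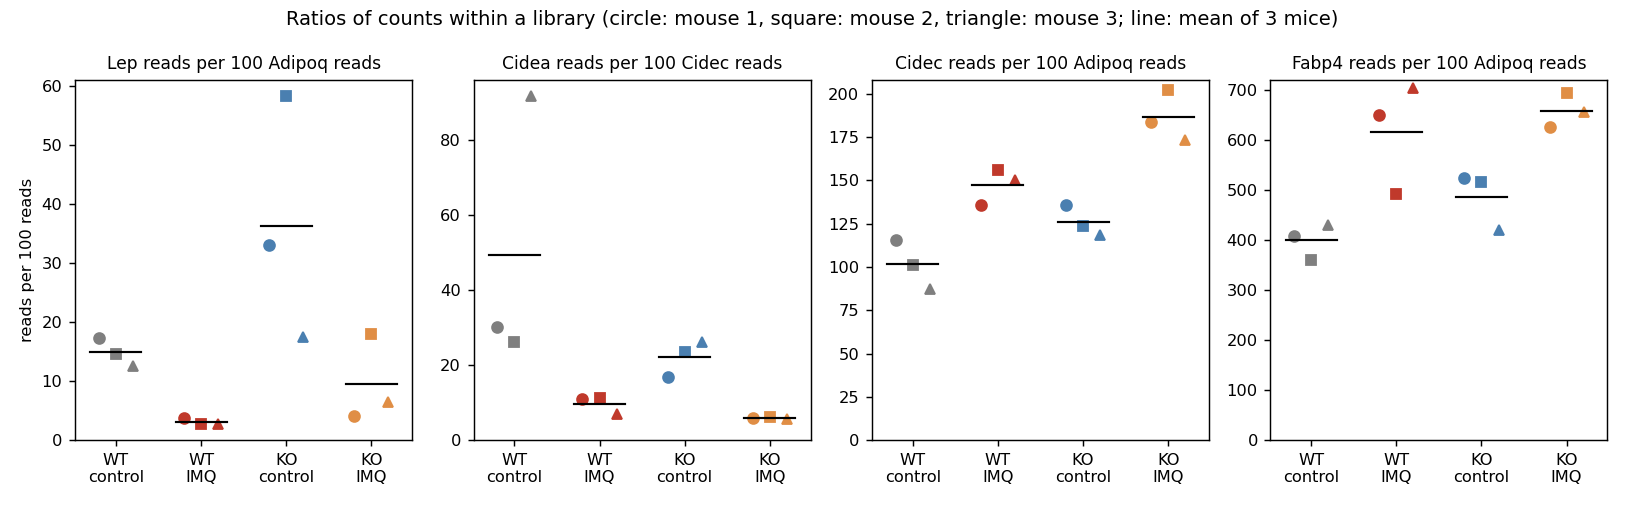
Ratios of the counts of one gene to those of another in each library (vertical axes, reads per 100 reads, from 0; 1 point per mouse, line at the mean of 3). Lep over Adipoq and Cidea over Cidec are lower after IMQ in WT mice, and Cidec and Fabp4 over Adipoq are higher after IMQ in both genotypes.

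The label of the list was checked by how its members moved together over the 12 libraries, which share 4 groups and so are no independent points. Pearson's r of a member's log2 CPM with the mean of the other 9 was between 0.838 and 0.977 for 9 members and 0.721 for Cidea. The closest pairs were Plin1 with Lpl (r = 0.974) and Cidec with Fabp4 (0.971). Cidea had r = 0.392 with Cidec and 0.443 with Fabp4, but 0.773 with Adipoq and 0.922 with Pparg. Cidea followed the sebaceous markers more closely than any member. Its r with the summed level of 10 sebaceous markers (none of them a member) was 0.974, and 0.983 for deviations from the group means. Cidec had 0.347 and 0.618, and for deviations the other members ran from 0.168 (Plin4) to 0.819 (Retn). In these libraries Cidea thus went less with the other members than with the sebaceous markers, and WT control mouse 3, which had the most Cidea (199 CPM), also had the highest sebaceous sum. Pparg had r = 0.874, and 0.791 for deviations, where Retn had 0.819 and where Pparg itself had 0.858 with the summed endothelial markers. PPARγ is known to act in sebocytes as well as in adipocytes.

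The sebaceous markers were themselves lower after IMQ, as were those of muscle. Over the 12 libraries, r of the members with the summed muscle markers was 0.192 (Cidec) to 0.828 (Cidea). For deviations from the group means it was 0.138 (Lep) to 0.321 (Plin4). Deviations gave r of 0.291 (Lep) to 0.902 (Adipoq) with the endothelial sum and 0.122 (Cidea) to 0.912 (Plin4) with the macrophage sum. With the fibroblast sum they gave -0.152 (Cidea) to 0.858 (Plin4), and with the keratinocyte sum -0.172 (Cidea) to -0.765 (Plin4). Of 10 sebaceous markers 7 fell in WT and 5 in KO mice, among them Scd3, a desaturase of sebocytes, with a log2 fold change of -6.34 in WT mice (adjusted p = 7.01e-05, edgeR) and -6.35 in KO mice (adjusted p = 0.000139). Their sum was between 2479 and 4206 CPM in WT control, 497 and 2331 in WT IMQ, 2359.5 and 3080.1 in KO control and 696 and 1093 in KO IMQ mice. Of 10 skeletal muscle markers, genes of the panniculus carnosus below the dermal fat, 8 fell in WT and 5 in KO mice, from a sum of 16393 to 17180.2 CPM down to 6881 to 8490.1 in WT mice, and from 8180.4 to 15231 CPM to 7083 to 10632 CPM in KO mice, where the ranges overlapped. Of 10 keratinocyte markers 9 were called higher in WT and 5 in KO mice, while Krt15 was called lower in both. In KO mice 3 of the 10 were below 0 on the log2 scale. The sum of the keratinocyte markers in WT mice went from between 6144 and 9474 CPM to between 30604 and 40901 CPM. CPM are relative to all RNA of a sample, so that the share of epidermal RNA enters them. Beyond TMM normalisation, the share of each tissue was not corrected for here. Macrophage markers were called higher for 2 of 10 in WT mice (list median log2 fold change 0.13) and 9 of 10 in KO mice (1.83). Endothelial markers were called higher for 4 and 8 of 10. Over all tested genes 14.3% were called lower and 14.2% higher in WT mice, and 11.2% and 14.1% in KO mice. Macrophages and endothelium also express Lpl and Fabp4, and KO IMQ mice had the highest endothelial sum of all groups, 964 to 973 CPM. Fibroblast markers fell for 5 of 10 in WT mice and rose for 5 of 10 in KO mice. Between KO IMQ and WT IMQ mice 3 of them, Col1a1, Col1a2 and Col3a1, were called higher. Keratinocyte markers went the other way there, with 10 of 10 below 0, a log2 median of -0.79, and Dsg3, Dsc3 and Trp63 called lower. Their sum was between 17640.0 and 28758 CPM in KO IMQ mice, below the 30604 to 40901 CPM of WT IMQ mice. The part of these cell types in the members' values was not tested.

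**Figure D5:**
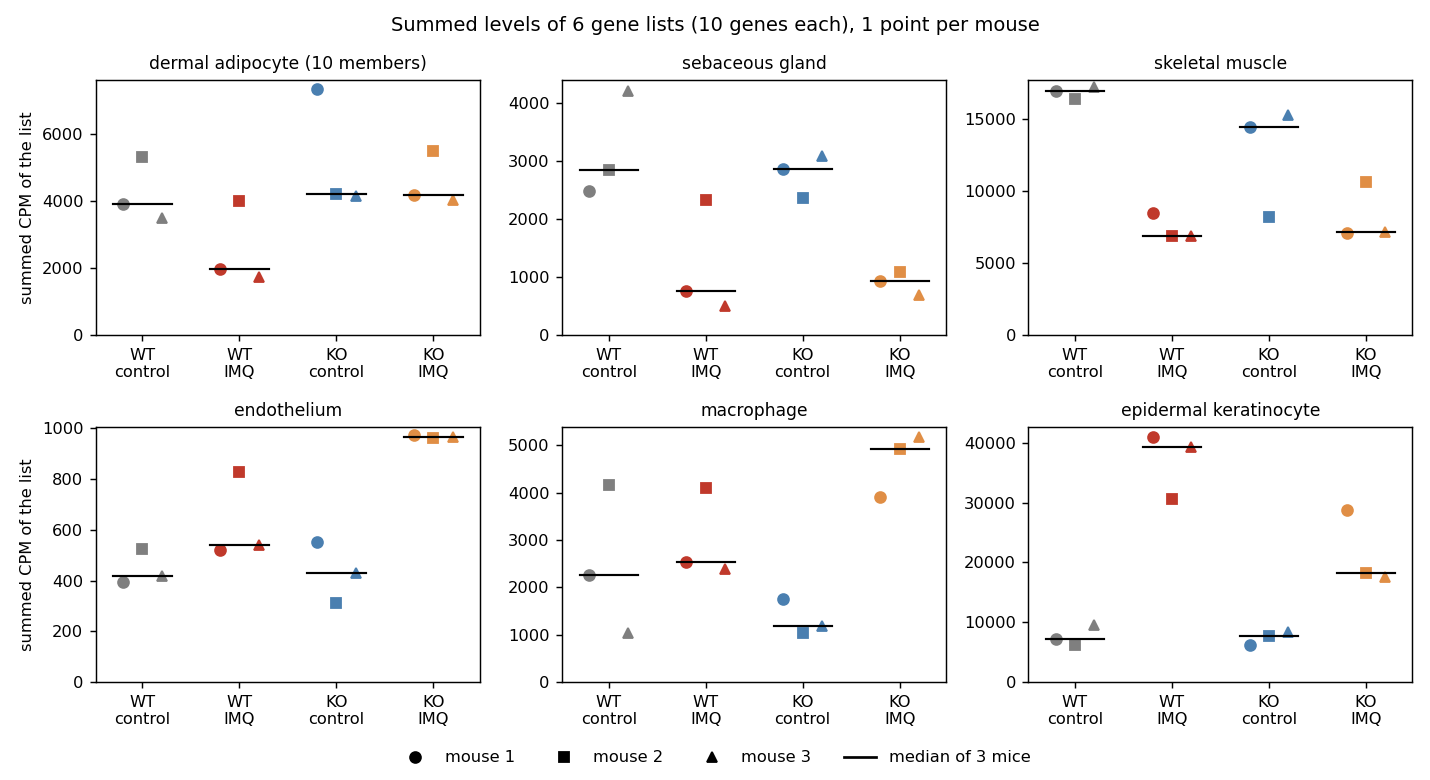
Summed CPM of the 10 members and of 5 lists of 10 marker genes in each mouse (vertical axes from 0; 1 point per mouse; line, median of 3). The members, sebaceous and muscle markers are lower in most IMQ mice, keratinocyte markers are higher, and WT IMQ mouse 2 (square) is above the other WT IMQ mice for members, sebaceous, endothelial and macrophage markers.

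Other genes of fat cells were counted in lists by known role, to be read against the shares over all tested genes, 14.3% lower and 14.2% higher in WT mice and 11.2% and 14.1% in KO mice. Of 23 genes of triglyceride storage and lipolysis, 5 fell and 1 rose in WT mice after IMQ (median log2 fold change -0.51) and 1 fell and 3 rose in KO mice (median -0.02). Those that fell in WT mice were the fatty acid transporter Cd36, the glycerol channel Aqp7, the acyltransferase Gpam, the droplet protein Plin2 and the caveolar gene Cavin1. Cd36 was at 629 CPM on average in WT control and 297 CPM in WT IMQ mice (log2 fold change -1.09, adjusted p = 0.0299, edgeR), and at 765 and 597 CPM in the KO groups (log2 fold change -0.36, adjusted p = 0.451). The lipolysis cofactor Abhd5 rose in both genotypes. The angiopoietin-like gene Angptl4, whose product inhibits lipoprotein lipase, rose in KO mice only by the test (log2 fold change 1.82, adjusted p = 0.000918, against -0.26, adjusted p = 0.494 in WT mice), and its interaction was called (log2 2.08, adjusted p = 0.0276, edgeR). KO control mice already lay below WT control mice (-0.96, adjusted p = 0.479), with no overlap, and this enters the interaction. The interaction was kept in 4 of 12 fits that leave out a mouse, and its adjusted p was 0.0587 with the replicate block. Lpl was not called in either genotype.

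Of 15 genes of fatty acid synthesis, 7 fell in WT mice and 6 in KO mice, with medians of -0.67 and -0.76, and 0 rose in either. Elovl5, Elovl6 and Fads2 were called in both, 4 genes in WT mice alone and 3 in KO mice alone. Elovl6, an elongase, fell by 3.01 on the log2 scale in WT mice (adjusted p = 0.004, edgeR) and by 2.92 in KO mice (adjusted p = 0.00588), while Fasn (-0.66 and -0.73) was not called. Scd1, the most abundant of the list, fell in WT mice (log2 fold change -1.44, adjusted p = 0.0371) and had -1.31 in KO mice (adjusted p = 0.0573). Sebocytes make these enzymes too. Of 16 transcription factors and coregulators, Ebf1, Ebf2, Zfp423 and Zfp467 fell in WT mice and Klf4, which keratinocytes also express, rose. In KO mice 0 fell, and Cebpb, Cebpd, Klf4 and Zfp467 rose. Cebpa, the partner of PPARγ, had a log2 fold change of -0.26 in WT mice (adjusted p = 0.224) and 0.05 in KO mice (adjusted p = 0.839), so that it did not share the call of Pparg. Zfp423, a factor of fat cell commitment, was higher in KO IMQ than in WT IMQ mice (log2 fold change 1.02, adjusted p = 0.0355, edgeR), as was Zfp467 (1.14, adjusted p = 0.0219), whose interaction was also called (1.12, adjusted p = 0.0436). Klf4 was lower there (-0.54, adjusted p = 0.0456). Each of these 3 calls between the IMQ groups was kept in 1 of 6 fits that leave out a mouse, and the interaction of Zfp467 in 3 of 12. With the replicate block the calls of Zfp423 (adjusted p = 0.0572) and Klf4 (0.0797) and the interaction of Zfp467 (0.0844) were lost.

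Of 19 genes of adipocyte hormones, receptors and glucose uptake, 6 fell in WT mice (Rbp4, Nrg4, Lepr, Slc2a4, Irs1 and Npr3) and 0 rose, and 4 fell and 3 rose in KO mice. Adipsin (Cfd), the most abundant of them, was at 1763 CPM on average in WT control and 973 CPM in WT IMQ mice, which was not called (log2 fold change -0.86, adjusted p = 0.149, edgeR). The natriuretic peptide clearance receptor Npr3 fell in both genotypes (log2 fold change -2.64, adjusted p = 0.00202 and -1.47, adjusted p = 0.0317) and was higher in KO IMQ than in WT IMQ mice (1.96, adjusted p = 0.0431). The latter call was kept in 0 of 6 fits that leave out a mouse, and the adjusted p was 0.0544 with the replicate block. Of 8 thermogenic genes 7 could be tested, Ucp1 being too low, and 4 fell in WT and 2 in KO mice. Cox7a1 (-1.67, adjusted p = 0.00201 in WT mice) and Cox8b (-1.12, adjusted p = 0.00413), which fell there, are also genes of skeletal muscle. Among 13 progenitor genes 3 fell and 1 rose in WT mice, and 1 fell and 2 rose in KO mice. Cd34, a marker of adipocyte precursors that hair follicle stem cells share, fell in WT mice (log2 fold change -1.44, adjusted p = 0.0135, edgeR). No gene of these 6 lists was called between KO control and WT control mice.

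The genes most alike in pattern to the mean of the 10 members, by Pearson's r of log2 CPM over the 12 libraries, were Chpt1 (0.993), Cd36 (0.991), Enpp5 (0.988), Prkar2b (0.986) and Abcd2 (0.976). Marc1 (0.976), Gstz1 (0.974), Pla2g16 (0.973), Rbp4 (0.968) and Sucnr1 (0.966) followed. They were picked for this likeness over the same libraries, so that their own differences between groups add nothing independent.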

How the data were processed

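RNA from the skin of 12 mice, 3 in each of 4 groups named in the sample titles, was sequenced. The authors deposited raw counts of reads per gene for each library, without normalisation. The submitters' processing notes name HISAT and the build mm8, with no version or annotation, and the counter and its strand setting are not given in the sources used here. Names and positions were taken from GENCODE M21 on GRCm38, which held 52073 of the 56923 identifiers (91.5%), and 0.567% of counts were on the others. Library totals were 16448226 to 28592110 counts.

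Counts were normalised by TMM and tested with edgeR 4.0.16 in R 4.3.3 (limma 3.58.1), by a robust quasi-likelihood fit of 4 group means over the 12 mice. The filter was filterByExpr (minimum count 10, minimum total 15), and p values were adjusted by Benjamini-Hochberg over the 18529 genes tested. The study's methods name DESeq2, and DESeq2 1.42.0 was run as an alternative. The common biological coefficient of variation was 0.253. Mice of a group are separate samples by their labels. No pair of libraries within a group was a duplicate, and pairs across groups were not checked for this. Scripts were tested on simulated data. Ratios were compared by exact permutation tests (scipy 1.17.1).

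The members and gene lists were chosen with earlier results of these data known. Named genes were the members, the 3 most abundant genes of each list, up to 5 list genes called between genotypes, the 10 most alike genes, and Lcn2. Other genes are named only where a count of calls lists them, and those, like the ratios and the comparison with sebaceous markers, were chosen after their values were seen. Promoter windows are RefSeq's. Alternatives were RLE size factors, no filter, at least 10 counts in every library, DESeq2, edgeR on the compared mice only, a replicate block, each mouse left out, and another call rule. Calls by a fold change above 2 with an adjusted p under 0.05 were added after seeing the data.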

Additional observations from a re-analysis of the deposited data

How the results depend on the processing

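Directions of the members held under RLE size factors, other filters, DESeq2 and the replicate block wherever a member was called. The 4 members lower in WT IMQ mice became 2 to 9 when a mouse was left out, 3 without a filter on low counts, 5 with at least 10 counts in every library and 6 with DESeq2 on all 12 mice. The 3 lower in KO IMQ mice became 0 with no filter on low counts, where more genes are tested, and 0 to 2 when a mouse was left out. Of the members higher in KO control than in WT control mice (0), a fold change above 2 with an unadjusted p gave 1, Lep. Of those higher in KO IMQ than in WT IMQ mice (0), at least 10 counts in every library gave 1, edgeR on the compared mice only 2, DESeq2 on all mice 3, DESeq2 on the compared mice only 3, a fold change above 2 with an unadjusted p 3, and leaving out a mouse 0 to 8. The interaction, called for 0 members, was called for 0 to 1 when a mouse was left out. The cause of these changes was not tested.

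Replicate numbers are shared by the groups but mark different animals. Over 18 pairs of same-numbered mice the mean correlation of deviations from the group means was -0.051 (-0.555 to 0.199), and 1 pair was over 0.1. These values gave no sign of pairing by number. They cannot decide it, since the pairs share mice and deviations within a group of 3 depend on each other. With the replicate block 6 members were lower in WT IMQ mice, 3 were lower in KO IMQ mice and 1 (Lep) was higher in KO IMQ than in WT IMQ mice. Depth limited Lep in WT IMQ mice most (57 to 112 reads), and the other members had at least 219 reads in every library.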
